A study of Arabidopsis thaliana with 30 samples.

Results

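18 Arabidopsis genes formed a pulse 24 h after a leaf was cut from the plant. They were taken from 33323 nuclear gene identifiers by their levels in the wild type (WT) alone. They were chosen by level in CPM, the count of a gene scaled to 1000000 counts on nuclear genes, averaged over the 3 WT replicates of a time. A gene was kept when its WT mean at 24 h was at least 10 CPM, at least 4 times the WT mean at 0 h, and at least 4 times the WT means at 72 and at 96 h, with 0.1 CPM added before each ratio. The first condition was met by 12379 genes, the first and second by 1585, and all by 18. WT levels at 0, 24, 72 and 96 h therefore chose the genes, and they are given here as a description with no test. The WT libraries at 48 h and all eur1-11 libraries took no part in the choice.

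The libraries were made from petiole regions of cut rosette leaves of 21-day-old plants. Leaves were cut at the petiole, floated on MES buffer under continuous white light, and sampled on the day of excision and then every 24 h until 96 h. eur1-11 is a line from a chemical mutagenesis screen with a change in EAR1, which dampens responses to the hormone abscisic acid (ABA), and WT is the Col line carrying ORE1::LUC in which that screen was done, so both genotypes hold this reporter. Each of the 10 groups of genotype and time had 3 replicates, 30 libraries in all, and the study used them to find genes that depend on EAR1 while cut leaves form roots. eur1-11 is a single mutant line, and the labels do not say that replicates were separate harvests, so the p-values rest on the spread among these libraries, which may be technical.

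A cut petiole loses its supply of water, mineral nutrients and hormones from the plant body and meets wounding and microbes at the open surface. Cells near the cut switch on stress and defence genes early, and some of them later become founders of new roots. ABA is a stress hormone that is carried into cells by transporters of the ABCG family, among others, and acts on promoters through short sites with the core letters ACGT.

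The libraries held 22482318 to 43243161 counts on genes, of which 10106273 to 30846364 were on nuclear genes, and 21556 to 24284 genes were detected in each. EAR1 transcripts were present in both genotypes, with means of 220, 494, 497, 396 and 342 CPM from 0 to 96 h in eur1-11 and 290, 641, 542, 486 and 420 CPM in WT, and since eur1-11 carries a point mutation there, these levels do not check the labels. Leaf markers were present: the summed level of 6 mesophyll markers was 3615 to 10634 CPM at 24 h in eur1-11, against 35642 to 46486 CPM at 0 h, and 3380 to 10468 CPM at 24 h in WT, against 35319 to 40557 CPM at 0 h. All 8 xylem markers and all 6 phloem and 6 cambium markers were detected in every group, while the root markers EXPA7, SHV2, SMB, CASP1 and MYB36 were at 0 in some groups. In these bulk samples, fewer cells of a type and less RNA per cell cannot be told apart.

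Replicate 3 stood apart from replicates 1 and 2 in these genes. In WT, all 18 genes were highest at 24 h in replicate 1 and all 18 in replicate 2, but in replicate 3 only 10 were highest at 24 h, 7 at 48 h (NRT2.5, ABCG40, MYB90, AT2G39530, EXO70H1, BG3 and NRT1.8) and 1 at 0 h (RAP2.6). At 24 h the WT replicate 3 level was a median of 0.398 times the mean of replicates 1 and 2, from 0.00761 times for EXO70H1 to 4.95 times for RNS1. It lay under 0.5 times that mean for 11 of the 18 genes, against 4.22% of the 12379 genes of at least 10 CPM. In eur1-11 the 24 h peak was seen in 17 genes in replicate 1, 18 in replicate 2 and 12 in replicate 3, and at 24 h replicate 3 was a median of 0.814 times the other replicates and under 0.5 times for 6 genes (background 2.38%). At 24 h replicate 3 also held more mesophyll marker transcripts, with a sum of 10634 CPM in eur1-11, against 3615 and 4411 CPM in the other eur1-11 replicates, and 10468 CPM in WT, against 3380 and 4678 CPM in the other WT replicates. Epidermis and xylem sums were higher too, at 2.26 and 1.88 times the mean of replicates 1 and 2 in eur1-11 and 2.98 and 1.82 times in WT. Guard cell, phloem, cambium and root sums were 0.797 to 1.18 times that mean. At 48 h the mesophyll sum of replicate 3 was lower, at 0.724 times in eur1-11 and 0.444 times in WT. The part of these differences in the results was not tested, and the numbers of genes called within eur1-11 or between genotypes are also given without replicate 3.

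**Figure D1:**
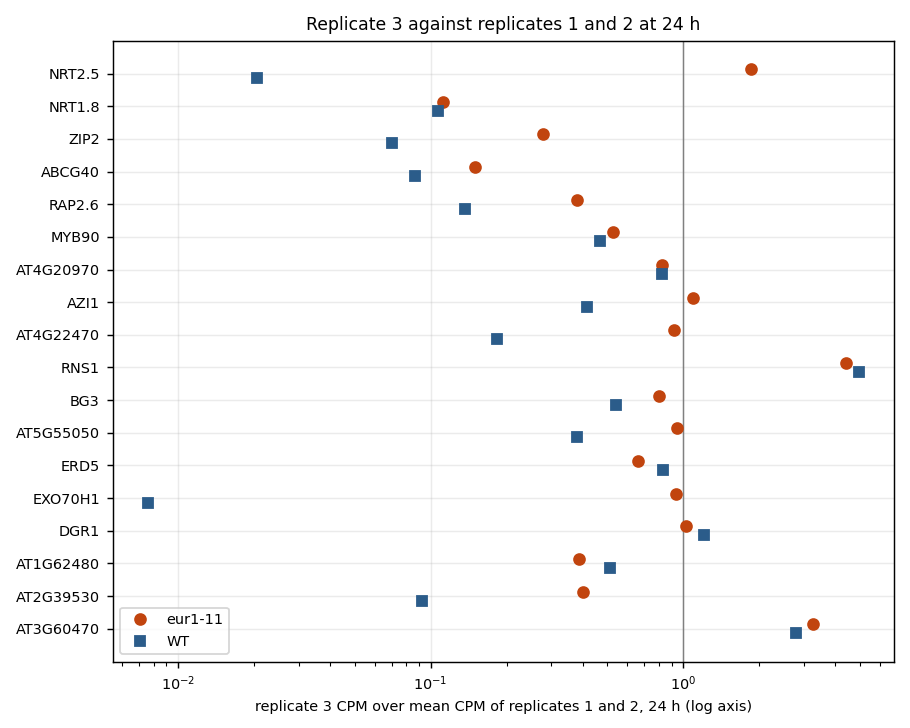
Level of each of the 18 genes in replicate 3 at 24 h divided by the mean of replicates 1 and 2 (x axis, log scale), with eur1-11 as circles and WT as squares, 1 library ratio per symbol. Most WT symbols lie left of 1, down to 0.00761 for EXO70H1, while RNS1, AT3G60470 and DGR1 lie right of 1 in both genotypes.

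The choice of genes depended on the libraries used and on the scaling. The rule on WT means kept 14 of the 18 without replicate 1, 11 without replicate 2, 16 without replicate 3, 13 with TMM-scaled CPM and 6 with total counts that include organelle genes. Applied to single WT replicates, the rule kept 52 genes in replicate 1, 43 in replicate 2 and 10 in replicate 3, and only DGR1 and ERD5 passed in each of the 3. From the means of replicates 1 and 2 it kept 48 genes, 16 of the 18 described here (all but RNS1 and AT3G60470) and 32 others. The highest of these 32 were AT3G46280 and the flagellin-induced receptor kinase gene FRK1, named here after their values were seen, at 964 and 894 CPM in WT at 24 h without replicate 3 and at 154 and 87.9 CPM in replicate 3. Just inside the limits of the rule were ABCG40, with a smallest ratio of 4.17, AT5G55050 with 4.29 and NRT1.8 with 4.33. Just outside were NUDT6 with 3.93, ACS8 with 3.92 and AT5G39580 with 3.89, and AT1G21320 passed the ratios with 6.28 CPM at 24 h.

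By known role, 3 of the 18 genes encode transporters of mineral nutrients (NRT2.5, NRT1.8, ZIP2), 1 an ABC transporter (ABCG40), 3 transcription factors (RAP2.6, MYB90, AT4G20970), 2 proteins of the lipid transfer family (AZI1, AT4G22470), 3 hydrolases or ribonucleases (RNS1, BG3, AT5G55050), 1 an enzyme of proline breakdown (ERD5) and 1 a vesicle tethering subunit (EXO70H1). The other 4, AT1G62480, DGR1, AT2G39530 and AT3G60470, are known by family only or as proteins of the membrane or wall. A search of RefSeq product names for class words placed 2 of the 18 (11.1%) among transcription factors other than WRKY factors, against 4.09% of the coding genes tested. It placed 0 among protein kinases, against 5.68%, and left 9 in no class. RAP2.6 was among these 9, since its product name holds no class word. Of 285 genes on 21 pathway lists, 3 were among the 18: NRT2.5 on the nitrate list, AZI1 on the salicylate and pipecolate list, and RAP2.6 on the wound list. No list of jasmonate, ethylene, auxin, heat shock or low oxygen genes held any of them. With only 18 of 33323 nuclear genes chosen, a short list would mostly hold none, so these counts say little about function. Members with known roles, such as NRT1.8, MYB90 and ABCG40, were on none of the lists.

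The course of the 18 genes was followed in eur1-11. 17 of 18 rose at 24 h against 0 h in eur1-11 (edgeR quasi-likelihood test, Benjamini-Hochberg adjusted p under 0.05), with adjusted p from 1.39e-11 for AZI1 to 0.000600 for RNS1. Of all 21472 genes tested, 34.6% were called higher, and 53.6% when libraries were scaled by their nuclear totals, where the median log2 fold change of all genes was 0.58 in place of 0.07. The median log2 fold change of the 18 was 5.83, and the 3 eur1-11 libraries at 24 h all lay above the 3 at 0 h for 17 of them, against 53.5% of nuclear genes. The exception in both was RAP2.6, and without replicate 3 all 18 were called higher. Several of the genes were nearly silent before the cut. Over the 3 eur1-11 libraries at 0 h, MYB90 had 0 counts, ZIP2 had 1, EXO70H1 had 2 and NRT2.5 had 3.

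The levels then fell again in eur1-11. At 48 h against 24 h, 8 of 18 fell (background 4.73% called lower), at 72 h against 24 h 15 of 18 (background 14.4%), and at 96 h against 24 h 15 of 18 (background 18.9%). The median log2 fold change of the 18 was -1.62 at 48 h, -2.32 at 72 h and -3.11 at 96 h, against 0.00044, -0.02 and -0.01 for all genes. None of the 18 was called higher in these 3 comparisons, where 4.23%, 11.5% and 17.1% of all genes were. All 3 eur1-11 libraries lay below the 3 of 24 h for 11 genes at 48 h, 14 at 72 h and 14 at 96 h, against 8.88%, 16.0% and 17% of nuclear genes. 13 genes were called higher at 24 h and lower at both 72 and 96 h, a sequence shared by 1717 of the genes tested (8.0%), so this sequence of calls is much wider than the 18. Without replicate 3 the sequence was called for 17 of the 18 (14% of all genes), without replicate 1 for 7 (0.506%) and without replicate 2 for 6 (0.405%). ABCG40 and MYB90 passed at neither late time, NRT1.8 did not pass at 72 h, RNS1 did not pass at 96 h and RAP2.6 did not pass for the rise. Without replicate 3, 17, 18 and 17 genes fell at 48, 72 and 96 h, with 21.7%, 23.2% and 26.2% of all genes called lower. Without replicate 1 the counts were 0, 7 and 11, with 0.0186%, 1.40% and 4.46% of all genes called lower, and without replicate 2 they were 0, 6 and 9, with 0%, 0.978% and 4.33%. At 48 h, the median share of the 24 h level left over the 18 genes was 0.301, 0.236 and 0.565 in eur1-11 replicates 1, 2 and 3, and 0.231, 0.247 and 0.945 in WT replicates 1, 2 and 3.

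The levels at 96 h were also set against those before the cut. 14 of 18 were higher at 96 h than at 0 h in eur1-11 (background 36.4% called higher), with a median log2 fold change of 3.38, and RAP2.6 was lower, at -3.76 ± 0.97 on the log2 scale (edgeR adjusted p = 0.00182, background 31.6% called lower). AT1G62480, BG3 and AT5G55050 passed in neither direction. The count of 14 was 5 without replicate 1, where 26.4% of all genes were called higher, 7 without replicate 2, where 26.3% were, and 14 without replicate 3, where 40.7% were.

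**Figure D2:**
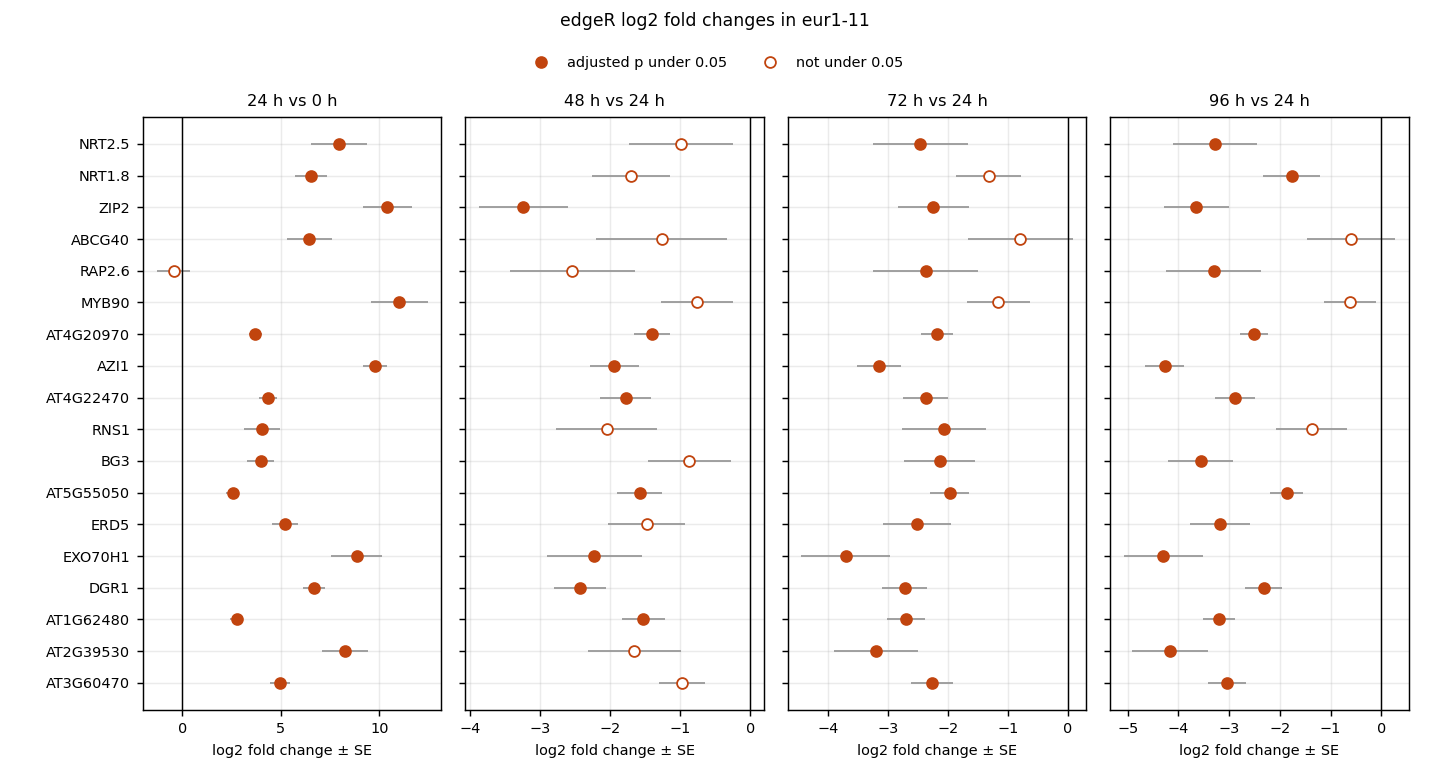
Log2 fold changes of the 18 genes in eur1-11 from edgeR (x axis, bars are ± 1 SE) for 24 h against 0 h and for 48, 72 and 96 h against 24 h, with filled symbols for adjusted p under 0.05. All but RAP2.6 lie right of 0 in the first panel and all 18 lie left of 0 in the other panels. The position of MYB90 in the first panel depends on the prior count because MYB90 had 0 counts at 0 h.

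The rule itself, applied to eur1-11 means, was met by 14 genes, which is 0.0420% of the nuclear genes. 9 of them were among the 18, which is 50% of the WT set and 64.3% of the eur1-11 set. These 9 were NRT2.5, AT1G62480, DGR1, AT2G39530, ERD5, EXO70H1, AZI1, AT4G20970 and AT4G22470. The 5 that met it in eur1-11 alone were AT1G30820, NUDT6, IAA29, AT5G18840 and AT5G44575, and NUDT6 missed in WT by a ratio of 3.93 at 72 h. At 24 h the eur1-11 mean was between 0.50 times the WT mean for AT3G60470 and 1.52 times for NRT1.8, with a median of 1.0 (0.1 CPM added to each mean). These means include replicate 3, at a median of 0.398 times the mean of replicates 1 and 2 in WT and 0.814 times in eur1-11. The median of 1.0 thus depends on replicate 3 and does not show equal levels in replicates 1 and 2. Without replicate 3 the rule was met by 24 genes in eur1-11, and by both genotypes for 37.5% of the 48 WT genes. No test between genotypes is given at 0, 24, 72 or 96 h, since the WT levels at those times chose the genes.

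**Figure D3:**
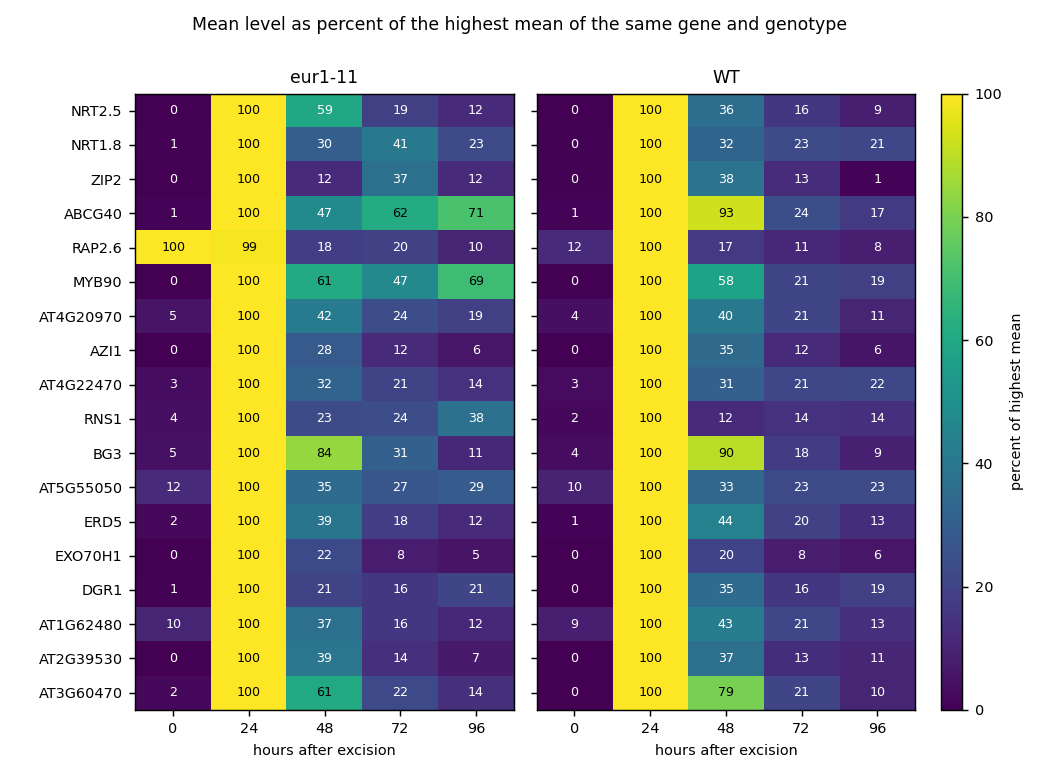
Mean CPM of each gene at each time (columns, 0 h leftmost to 96 h rightmost) as a percent of its own highest mean in the same genotype, eur1-11 on the left and WT on the right (n = 3 libraries per mean). RAP2.6 in eur1-11 is as high at 0 h as at 24 h.

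48 h was the only time of which the rule used no library of either genotype, so the genotypes were tested there. The genes were still chosen for a high WT level at 24 h. A lower eur1-11 level that lasted from 24 to 48 h would thus be favoured by the choice. Between eur1-11 and WT at 48 h, 1 of 18 genes was called, AT3G60470, which was lower in eur1-11 (background 0.0559% called lower and 0.284% called higher). The median log2 fold change of the 18 was -0.17, against -0.01 for all genes. AT3G60470 encodes a putative membrane protein with a DUF247 domain and lies on chromosome 3 at 22344758 to 22347121 of TAIR10.1, plus strand, with 2 exons. Its level at 48 h was 2.05, 1.37 and 9.41 CPM in eur1-11 and 5.80, 5.49 and 22.5 CPM in WT. The ranges overlapped, with replicate 3 high in both genotypes. In 3 of 3 pairs of equal replicate number AT3G60470 was lower in eur1-11. The same was true of ABCG40, AT1G62480 and BG3, while RAP2.6 was higher in 3 of 3, and none of these was called. The share of all genes with 3 of 3 pairs in 1 direction was not counted. The difference of AT3G60470 on the log2 scale was -1.53 ± 0.32 (SE) with an edgeR adjusted p = 0.0343. Without the replicate block it was not called. It was not called without replicate 1 or 2 either, and without replicate 3 it was called at -1.70 ± 0.33 (edgeR adjusted p = 0.00290). At 24 h, where no test is given, AT3G60470 stood at 4.93, 3.02 and 13.2 CPM in eur1-11 and 7.86, 9.78 and 24.9 CPM in WT. Its mean there was 14.2 CPM in WT and 7.05 CPM in eur1-11, under the limit of 10 CPM. It was therefore chosen through WT, and its direction at 48 h is not free of the rule.

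Without replicate 3, 6 of the 18 were called between genotypes at 48 h, against 3.90% of all genes called higher and 2.84% called lower. NRT1.8 and MYB90 were higher in eur1-11, with log2 fold changes of 0.97 ± 0.15 and 0.80 ± 0.23 (SE, edgeR adjusted p = 0.000492 and 0.0480). ZIP2, BG3, AT1G62480 and AT3G60470 were lower, the first 3 with -1.29 ± 0.19, -1.0 ± 0.16 and -0.46 ± 0.08 (edgeR adjusted p = 0.000354, 0.000588 and 0.000946). With replicate 3 in the fit, the adjusted p of these 5 genes other than AT3G60470 lay between 0.927 and 1, and MYB90 lay on the other side of 0. The log2 fold changes were then 0.0084 ± 0.58 for NRT1.8, -0.34 ± 0.52 for MYB90, -0.52 ± 0.64 for ZIP2, -0.58 ± 0.57 for BG3 and -0.37 ± 0.30 for AT1G62480. NRT1.8 was at -0.46 without replicate 1 and -0.40 without replicate 2, and ZIP2 at 0.31 without replicate 2, so their directions also changed with the libraries.

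Mineral nutrient transporters had low or no counts before the cut. NRT2.5 (AT1G12940) encodes a high-affinity nitrate transporter that is known from nitrogen-starved plants. Its place in TAIR10.1 is chromosome 1, 4416315 to 4418590, plus strand. A stretch of 247 bases, 13.3% of its transcript, is 93.9% identical to AT4G14360, so reads of that stretch could be shared. NRT2.5 had 18.8, 18.1 and 34.3 CPM at 24 h in eur1-11, against 0, 0.169 and 0 CPM at 0 h, a ratio of 397 (95% counting interval 136 to 1927). In WT it had 40.2, 45.6 and 0.779 CPM at 24 h, against 0 counts in all 3 libraries at 0 h, at least 371-fold higher (floor of 3 counts over the group). The WT replicate 3 value is thus far below its group while the eur1-11 replicate 3 value is the highest of its own. At 96 h NRT2.5 was down to 1.98, 1.24 and 5.31 CPM in eur1-11 and 1.86, 1.47 and 4.11 CPM in WT. In eur1-11 it fell by 3.29 ± 0.83 on the log2 scale between 24 and 96 h (edgeR adjusted p = 0.00465).

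NRT1.8 (AT4G21680) encodes a transporter that takes nitrate back out of the xylem sap. It had 0.228, 0.621 and 1.15 CPM at 0 h, 137, 163 and 16.7 CPM at 24 h, 40.4, 46.4 and 8.67 CPM at 48 h, 64.9, 55.3 and 8.46 CPM at 72 h and 25.1, 28.9 and 19.5 CPM at 96 h in eur1-11. In WT it had 88.9, 109 and 10.5 CPM at 24 h and 17.7, 24.0 and 6.20 CPM at 72 h, where the rule required a low WT level. In eur1-11 NRT1.8 fell by 1.77 ± 0.57 between 24 and 96 h (edgeR adjusted p = 0.0187). 44 exon bases of NRT1.8 lie over CPL1 on the other strand, and strand was not stated for the counts, so reads of that stretch are uncertain.

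ZIP2 (AT5G59520), a metal transporter of the ZIP family, had 42.4, 44.1 and 12 CPM at 24 h in eur1-11 and 31.0, 31.8 and 2.11 CPM in WT, with 1 count over the 3 eur1-11 libraries at 0 h and 3 over the WT libraries. At 48 h it was at 4.30, 5.58 and 1.66 CPM in eur1-11 and 9.57, 15 and 0.327 CPM in WT. At 72 h replicates 1 and 2 of eur1-11 stood at 16.2 and 19.9 CPM and replicate 3 at 0.115 CPM, against 3.51, 4.49 and 0.245 CPM in WT. By 96 h eur1-11 had 6.65, 4.53 and 0.365 CPM and WT 0.169, 0.267 and 0.124 CPM. At 72 and 96 h the rule required the WT level to be low. Within eur1-11, ZIP2 fell by 3.24 ± 0.64 between 24 and 48 h (edgeR adjusted p = 0.00384).

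ABCG40 (AT1G15520) encodes an ABC transporter of the plasma membrane known to import ABA. In eur1-11 it stood at 3.25, 6.61 and 6.23 CPM at 0 h, 929.6, 880.2 and 135 CPM at 24 h, 117, 132 and 673 CPM at 48 h, 548, 396 and 256 CPM at 72 h and 479, 710.5 and 194 CPM at 96 h. In WT it stood at 5.21, 3.3 and 5.15 CPM at 0 h, 794, 801 and 69.0 CPM at 24 h, 164, 148 and 1232 CPM at 48 h, 112, 109 and 178 CPM at 72 h and 92.6, 102 and 89.8 CPM at 96 h. At 96 h the means were 461 ± 259 CPM in eur1-11 and 94.9 ± 6.54 CPM in WT (SD, n = 3), where the rule required the WT level to be low. Within eur1-11, ABCG40 rose by 6.45 ± 1.13 on the log2 scale at 24 h (edgeR adjusted p = 3.55e-05) and differed by -0.60 ± 0.87 between 96 and 24 h (edgeR adjusted p = 0.626). Replicates 1 and 2 of eur1-11 had a low at 48 h and a second high at 72 or 96 h, whereas replicate 3 was highest at 48 h.

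A low at 48 h followed by a higher level at 72 h in both of replicates 1 and 2 was seen in 4 of the 18 genes in eur1-11 (ABCG40, RAP2.6, NRT1.8 and ZIP2) and in 1 in WT (RNS1). None of the 4 was higher at 72 than at 48 h in replicate 3 of eur1-11. Between 48 and 72 h, 12 of the 18 fell in all 3 eur1-11 replicates and 14 in all 3 WT replicates. The WT counts, of the low at 48 h and of these falls, are partly set by the rule, which required low WT means at 72 h. The 4 genes in eur1-11 and the 1 in WT are therefore no comparison of the genotypes. Shares of all genes were not counted for the low at 48 h or for these falls. The low at 48 h was noticed in the values and has no test of its own.

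The transcription factors followed different courses. RAP2.6 (AT1G43160), an ERF factor known to respond to wounding, ABA and jasmonate, had 12.3, 16.2 and 5.36 CPM at 24 h in eur1-11, against 2.17, 4.91 and 27.3 CPM at 0 h. The groups overlapped, with replicate 3 highest before the cut, and the log2 fold change was -0.45 ± 0.86 (edgeR adjusted p = 0.661). Without replicate 3 it rose by 1.53 ± 0.29 (edgeR adjusted p = 0.000105). In WT it had 13.3, 18 and 2.06 CPM at 24 h and 0.190, 0.577 and 3.27 CPM at 0 h, so replicate 3 was above the other WT libraries at 0 h too. RAP2.6 fell by 3.31 ± 0.93 between 24 and 96 h in eur1-11 (edgeR adjusted p = 0.00858), to 1.56, 1.44 and 0.521 CPM.

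MYB90 (AT1G66390), also called PAP2, encodes a MYB activator of anthocyanin genes. It had 0 counts in all 6 libraries at 0 h. At 24 h it had 15.2, 14.4 and 7.74 CPM in eur1-11 and 18.5, 18.9 and 8.73 CPM in WT, which is at least 206-fold higher than before the cut in eur1-11 and at least 196-fold in WT (floor of 3 counts over the group). In eur1-11 it had 7.47, 5.51 and 4.63 CPM at 72 h and 8.98, 12.5 and 4.32 CPM at 96 h. WT had 3.82, 2.07 and 3.68 CPM at 72 h and 3.38, 2.89 and 2.49 CPM at 96 h, times at which the rule required low WT levels. The change of -0.62 ± 0.51 between 96 and 24 h in eur1-11 did not pass the test (edgeR adjusted p = 0.370). The transcript is 81.4% identical to MYB113 over 78.4% of its length, so reads of the most alike stretches could have been assigned to either gene.

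AT4G20970, a basic helix-loop-helix factor was one of those with similar values in all 3 replicates, with 10.6, 13.6 and 9.97 CPM at 24 h in eur1-11 and 11.7, 11.8 and 9.68 CPM in WT. It rose by 3.69 ± 0.33 at 24 h and fell by 2.52 ± 0.28 between 24 and 96 h in eur1-11 (edgeR adjusted p = 3.67e-09 and 1.22e-06).

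The 250 bases before the annotated start were read for all 18 genes from the RefSeq TAIR10.1 genome. The letters ACGTG, the core of ABA-response elements, were found on either strand in 8 of the 18 windows (44.4%), against 22.9% of 27443 coding promoters and 25.3% of the 1557 other genes that passed the WT conditions at 24 and 0 h. The 8 were MYB90 with 4 matches, RAP2.6 with 3, RNS1 with 2 and ABCG40, EXO70H1, BG3, AZI1 and AT4G22470 with 1 each, where a G-box CACGTG counts as 2 overlapping matches. The window of AT4G22470 overlaps another gene, AT4G22467. The W-box core TTGAC, bound by WRKY factors, was in 9 windows (50%), against 44.9% of all promoters and 51.3% of those 1557 genes. CACGTG was in 2 (11.1%, against 6.49%), the auxin-response letters TGTCTC in 1 (5.56%, against 10.9%) and the GCC box GCCGCC in 0 (against 1.87%). A match describes letters and not a bound site. The windows of the 3 genes with the most ACGTG matches and of ABCG40, the ABA importer, are printed 5′ to 3′ on the strand of the gene, with ACGTG or its complement CACGT in capitals.
RAP2.6 (TAIR10.1 chr1:16263555-16263804, plus strand): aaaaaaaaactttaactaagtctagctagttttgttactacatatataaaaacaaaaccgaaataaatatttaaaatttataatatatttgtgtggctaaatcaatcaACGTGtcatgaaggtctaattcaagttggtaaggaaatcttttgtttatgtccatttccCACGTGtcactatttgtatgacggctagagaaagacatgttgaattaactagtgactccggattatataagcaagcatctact
MYB90 (TAIR10.1 chr1:24763691-24763940, plus strand): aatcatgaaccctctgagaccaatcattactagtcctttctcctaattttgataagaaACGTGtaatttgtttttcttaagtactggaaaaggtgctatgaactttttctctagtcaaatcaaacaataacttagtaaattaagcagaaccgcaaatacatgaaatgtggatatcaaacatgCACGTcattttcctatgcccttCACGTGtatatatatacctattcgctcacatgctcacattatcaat
RNS1 (TAIR10.1 chr2:873256-873505, plus strand): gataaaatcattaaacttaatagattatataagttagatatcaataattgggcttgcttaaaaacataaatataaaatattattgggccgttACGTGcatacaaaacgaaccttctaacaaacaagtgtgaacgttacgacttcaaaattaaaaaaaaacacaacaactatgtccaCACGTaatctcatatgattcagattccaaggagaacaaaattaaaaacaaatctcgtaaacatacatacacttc
ABCG40 (TAIR10.1 chr1:5338327-5338576, minus strand): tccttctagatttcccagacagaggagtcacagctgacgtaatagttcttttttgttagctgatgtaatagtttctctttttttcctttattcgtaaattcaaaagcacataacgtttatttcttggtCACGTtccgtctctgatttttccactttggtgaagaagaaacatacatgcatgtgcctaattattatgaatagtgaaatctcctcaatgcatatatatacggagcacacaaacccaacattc
The first base of the G-box stands 46 bases before the start in MYB90 and 83 bases before it in RAP2.6. The single match of ABCG40 begins 122 bases before the start.

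Among the proteins of the lipid transfer family, AZI1 (AT4G12470) is known for priming salicylate defence at a distance from an infection. AZI1 had 241, 255 and 271 CPM at 24 h in eur1-11, against 0.228, 0.226 and 0.135 CPM at 0 h, and 289, 308 and 124 CPM at 24 h in WT. The 3 eur1-11 libraries agree closely, and the rise of 9.78 ± 0.59 on the log2 scale had the lowest adjusted p of the 18 (edgeR adjusted p = 1.39e-11). By 96 h it was at 10.6, 7.58 and 28.4 CPM in eur1-11 and 10.5, 11.1 and 19.7 CPM in WT, and the fall from 24 h in eur1-11 was 4.28 ± 0.39 (edgeR adjusted p = 1.33e-07). Its close copy EARLI1, 82.4% identical over 87.3% of the AZI1 transcript, was not among the 18: its mean was 909 CPM at 24 h and 210.5 CPM at 96 h in eur1-11, and 957 and 233 CPM in WT. Reads in alike stretches of AZI1 and EARLI1 could be shared.

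AT4G22470, a lipid transfer protein of the same family, had 24.2, 23.1 and 21.8 CPM at 24 h in eur1-11 and 31.1, 32.3 and 5.73 CPM in WT. It fell by 2.89 ± 0.39 between 24 and 96 h in eur1-11 (edgeR adjusted p = 1.45e-05). The whole gene is overlapped by AT4G22467 on the other strand, so its reads are uncertain.

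Among the hydrolases, replicate 3 stood high for RNS1 at 24 h and for BG3 at 48 h. It also stood high for AT3G60470 at both times and for ABCG40 at 48 h. RNS1 (AT2G02990), a secreted ribonuclease known from phosphate shortage and wounding, had 3.17, 2.82 and 13.5 CPM at 24 h in eur1-11 and 3.75, 5.53 and 23.4 CPM in WT. In WT, RNS1 was highest at 24 h in each replicate, but replicate 3 carried most of the mean, and without replicate 3 RNS1 did not meet the rule. In eur1-11 replicate 1 its highest value was 4.25 CPM, at 96 h. It rose by 4.02 ± 0.92 at 24 h in eur1-11 (edgeR adjusted p = 0.000600). BG3 (AT3G57240), a beta-1,3-glucanase of the group of pathogenesis-related enzymes, had 59.8, 56.9 and 46.9 CPM at 24 h in eur1-11 and 76.3, 84.1 and 43.4 CPM in WT. At 48 h replicates 1 and 2 had dropped to 14.8 and 12.8 CPM in eur1-11 and 27.9 and 28.3 CPM in WT, while replicate 3 stood at 109.9 CPM in eur1-11 and 127 CPM in WT. Between 24 and 96 h BG3 fell by 3.56 ± 0.64 in eur1-11 (edgeR adjusted p = 0.000275), and at 96 h it differed from 0 h by 0.43 ± 0.70 (edgeR adjusted p = 0.602).

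AT5G55050, a GDSL-type lipase, had the smallest rise of the 17, 2.55 ± 0.34 on the log2 scale in eur1-11 (edgeR adjusted p = 1.25e-06), with 89.5, 102 and 90.3 CPM at 24 h against 10.5, 12.4 and 10.7 CPM at 0 h. In WT it had 131, 139.7 and 51.1 CPM at 24 h.

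ERD5 (AT3G30775) encodes proline dehydrogenase, the mitochondrial enzyme that starts proline breakdown, and had the highest mean of the 18 at 24 h in eur1-11. That mean was 803 CPM, against 759 CPM for AT1G62480, which was the higher of the 2 genes in replicates 1 and 2. ERD5 had 3.65, 4.35 and 42.3 CPM at 0 h, 814, 997 and 599.7 CPM at 24 h, 271, 305 and 364 CPM at 48 h, 195, 134 and 116 CPM at 72 h and 117, 104 and 62.0 CPM at 96 h in eur1-11. In WT it had 820.4, 802 and 676 CPM at 24 h and 95.2, 108 and 99.7 CPM at 96 h. Replicate 3 of eur1-11 stood above its group at 0 h, as it did for RAP2.6 in the same library. ERD5 met the rule in each WT replicate alone, it rose by 5.20 ± 0.66 at 24 h and fell by 3.18 ± 0.59 between 24 and 96 h in eur1-11 (edgeR adjusted p = 6.33e-07 and 0.000347).

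EXO70H1 (AT3G55150), a subunit of the exocyst complex that tethers vesicles to the plasma membrane and is known from defence, had 24.2, 33.7 and 27.2 CPM at 24 h in eur1-11, against 2 counts over the 3 libraries at 0 h, a ratio of 730 (95% counting interval 202 to 6036). At 72 h it was at 2.31, 2.64 and 1.95 CPM and at 96 h at 1.69, 0.824 and 2.14 CPM, a fall of 4.30 ± 0.78 between 24 and 96 h (edgeR adjusted p = 0.000277). In WT it had 43.7 and 40.8 CPM in replicates 1 and 2 at 24 h and 0.223 CPM in replicate 3, the lowest ratio of replicate 3 to the others among the 18. At 72 h EXO70H1 averaged 2.30 ± 0.344 CPM in eur1-11 and 2.21 ± 0.531 CPM in WT, and at 96 h it averaged 1.55 ± 0.666 CPM in eur1-11 and 1.71 ± 0.397 CPM in WT (SD, n = 3).

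The remaining 4 genes are named by family. DGR1 (AT1G80240), a cell wall protein of the DUF642 family, had 46.3, 40.5 and 44.6 CPM at 24 h in eur1-11 and 27.3, 28.9 and 34.0 CPM in WT. DGR1 met the rule in every WT replicate. In eur1-11 DGR1 fell by 2.43 ± 0.37 between 24 and 48 h (edgeR adjusted p = 0.000544), and its 96 h libraries, at 10.3, 9.56 and 7.61 CPM, stayed above those of 0 h. AT1G62480, annotated as like a vacuolar calcium-binding protein, had 885, 1022 and 369 CPM at 24 h in eur1-11 and 953, 1038 and 509 CPM in WT. At 0 h it had 66.4, 64.8 and 102 CPM in eur1-11 and 64.3, 64.4 and 85.7 CPM in WT. It was the gene with the highest level before the cut, and at 96 h in eur1-11 it was at 95.6, 95.6 and 73.9 CPM, which overlapped the values at 0 h. Its fall of 2.71 ± 0.32 between 24 and 72 h in eur1-11 passed the test (edgeR adjusted p = 6.59e-06). AT2G39530, a small membrane protein of the CASP-like kind, had 39.0, 44.9 and 16.8 CPM at 24 h in eur1-11 and 65.0, 63.0 and 5.84 CPM in WT. It fell by 4.16 ± 0.75 between 24 and 96 h in eur1-11 (edgeR adjusted p = 0.000277). Its transcript is 80.3% identical to AT2G39518 over 55.4% of its length.

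**Figure D4:**
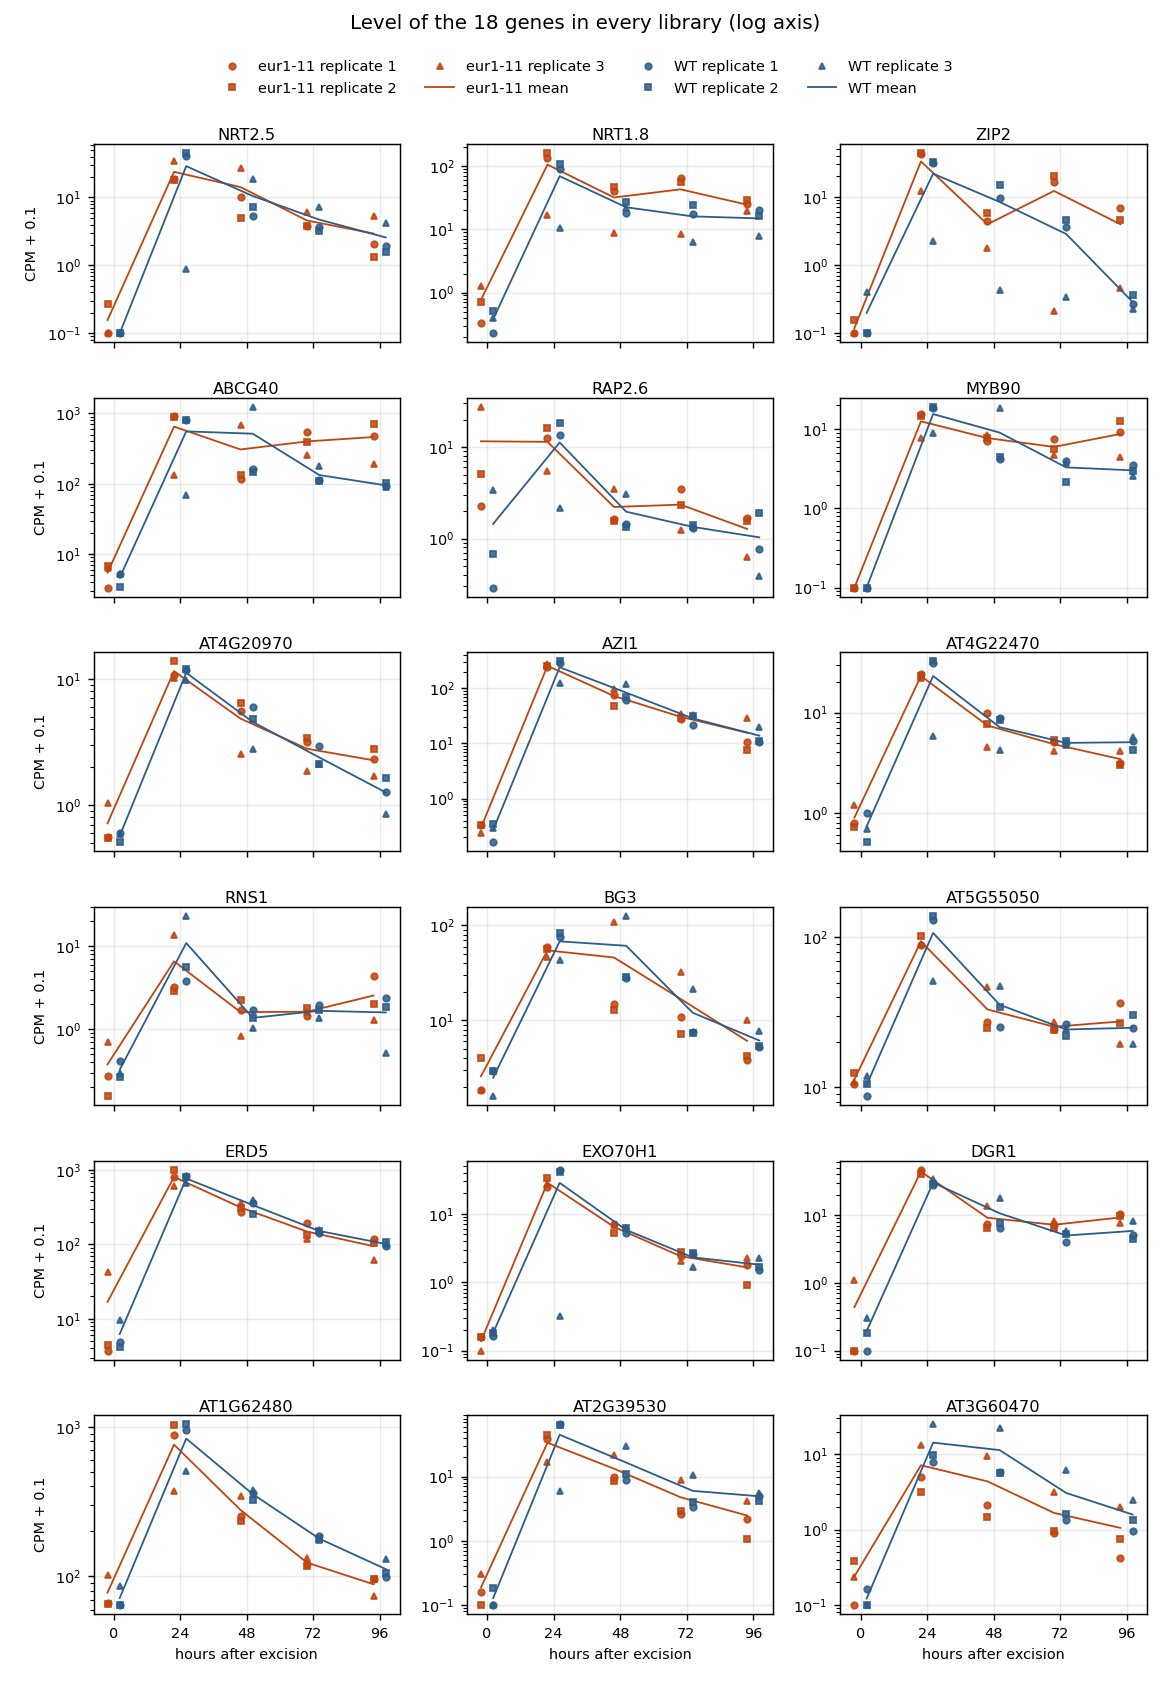
CPM + 0.1 (y axis, log scale, a separate range in each panel) of the 18 genes at 0 to 96 h after excision, with eur1-11 drawn just left of WT at each time, 1 symbol per library and lines through the group means (n = 3). The WT replicate 3 symbols (triangles) lie far from the others at 24 h in NRT2.5, EXO70H1 and ABCG40.

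3 pathway lists hold a gene of the 18, NRT2.5, AZI1 or RAP2.6, and their counts include it. Of all genes, 34.6% were called higher and 31.7% lower at 24 h against 0 h in eur1-11, and 17.1% higher and 18.9% lower at 96 h against 24 h. On the nitrate and ammonium list, 4 of 11 tested genes rose and 2 fell at 24 h in eur1-11, and 3 fell and 1 rose between 24 and 96 h, with medians of 1.25 and -0.31 against 0.07 and -0.01 for all genes. NRT3.1, the partner protein of NRT2 transporters, rose by 2.76 ± 0.48 at 24 h and fell by 1.18 ± 0.44 by 96 h (edgeR adjusted p = 3.62e-05 and 0.0419), with means of 85.3 CPM at 24 h in eur1-11, against 8.54 CPM at 0 h. NRT1.1 rose by 2.34 ± 0.21 (edgeR adjusted p = 4.16e-09) and differed by 0.11 ± 0.20 between 96 and 24 h (edgeR adjusted p = 0.713).

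On the salicylate and pipecolate list, 11 of 17 rose and 1 fell at 24 h in eur1-11, against 34.6% and 31.7% of all genes. Between 24 and 96 h, 8 of the 17 fell and 2 rose, against 18.9% and 17.1% of all genes. NIMIN1, which binds the salicylate co-activator NPR1, fell by 2.19 ± 0.34 (log2 scale, edgeR adjusted p = 5.57e-05). ICS1, which makes the precursor of salicylate, fell by 1.62 ± 0.33 (edgeR adjusted p = 0.000729). PR1 and PR2, pathogenesis-related proteins, rose further, by 4.62 ± 0.62 and 2.16 ± 0.49 (edgeR adjusted p = 1.22e-05 and 0.00190). On the wound and regeneration list, 6 of 10 rose and 1 fell at 24 h, and 4 fell and 3 rose between 24 and 96 h, against the same shares of all genes. RAP2.6L, a close relative of RAP2.6, was at 0 CPM at 0 h in eur1-11 and had means of 31.2 CPM at 24 h and 54.7 CPM at 96 h in eur1-11, against 35.3 and 50.4 CPM in WT, so its means were higher at 96 h than at 24 h.

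The 18 genes are spread over the genome, with 6 on chromosome 1, 2 on chromosome 2, 4 on chromosome 3, 4 on chromosome 4 and 2 on chromosome 5. No 2 of them are neighbours, and the closest pair, AT4G20970 and NRT1.8, is 300921 bases apart.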

How the data were processed

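RNA of petiole regions from 30 libraries was sequenced on an Illumina NovaSeq instrument. According to the submitters' processing notes and the study's methods, the authors checked and trimmed reads with FastQC, mapped them to TAIR10 with STAR and counted them per gene with HTSeq. The deposited counts are whole reads per gene, not normalized. Tool versions and strand setting: not given in the sources used here. Unassigned reads without a feature made up 3.58 to 6.76% of the counted and uncounted total and ambiguous reads 2.43 to 3.45%, and these were left out. Chloroplast genes took 18.7 to 62.9% of gene counts, so levels are CPM of nuclear genes, while tests used all genes with TMM factors (0.442 to 1.42). Intervals, ratios and floors from counts cover counting error only, and reads without molecular identifiers are not independent molecules.

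Counts of all 30 libraries were fitted in 1 edgeR 4.0.16 quasi-likelihood model (R 4.3.3) with group and replicate number, the study's batch factor, as terms, after filterByExpr (21472 genes). SE is |log2 fold change| over the root of the F statistic. p-values were adjusted over all genes tested by Benjamini-Hochberg. All 18 members passed the filter. Equal replicate numbers deviated together, with r over 0.1, in 15 of 15 pairs (mean r = 0.518, 0.272 to 0.769). Of 30 pairs of unequal numbers, 10 were over 0.1 (mean -0.213, -0.731 to 0.600). Deviations from a mean of 3 libraries cancel within each group, so a positive r for equal numbers pushes unequal numbers the other way. That contrast is thus no separate evidence of pairing. A replicate 3 that stood apart could give such values without replicates 1 and 2 being matched. The pairing is therefore taken from the study's methods, and neither the labels nor these correlations settle it. The members, lists and tests were chosen with earlier results of these data known. All 18 members are named in the text, and other genes are named from the lists, beside the limits of the rule, as genes that met it in eur1-11 alone, or as close copies and overlapping genes of members, besides 2 chosen after their values were seen (AT3G46280 and FRK1). Of 342 list entries, 12 whose symbol was not found for the identifier were left out. Names and positions are from RefSeq on TAIR10.1, where 97.7% of identifiers matched. The script was tested on simulated data for the comparison of 24 h against 0 h. Alternatives were DESeq2 1.42.0, other scalings, no filter, no replicate block, subsets of libraries, leaving out each replicate, and other limits of the rule. The alternatives of the 48 h share of the 24 h level and of the sequence of 3 calls were chosen after seeing the data.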

Additional observations from a re-analysis of the deposited data

How the results depend on the processing

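Leaving out each replicate in turn gave 0 to 17 genes lower at 48 h against 24 h in eur1-11, 6 to 18 at 72 h, 9 to 17 at 96 h, 5 to 14 higher at 96 h against 0 h, and 0 to 6 called between genotypes at 48 h. It gave 15 to 48 genes by the rule in WT and 12 to 24 in eur1-11. Fewer libraries were fitted in each of these, and the part of replicate 3 itself was not tested. By the rule, total counts with organelle genes kept 6 WT genes, a 3-fold limit 46 and an 8-fold limit 2, of which 100% met it in eur1-11. Without the replicate block, 0 genes were called between genotypes at 48 h and 6 values lost their call. 9 values changed sign, none of them called with all libraries: RAP2.6 at 24 h against 0 h was 0.10 with total nuclear counts and -1.30 to 1.53 with a replicate left out (1.53 without replicate 3), AT1G62480 at 96 h against 0 h was 0.19 with total nuclear counts, and BG3 there was -0.10 to 1.16 with a replicate left out (-0.10 without replicate 3). Between genotypes at 48 h, MYB90 was 0.032 with the 48 h libraries alone and -0.73 to 0.80 with a replicate left out, NRT1.8 was -0.46 to 0.97 and ZIP2 -1.29 to 0.31 with a replicate left out. The other scalings and fits, DESeq2, DESeq2 size factors, upper quartile, no filter and eur1-11 alone, reversed none, and DESeq2 kept 91 of 96 values on their side of the threshold. Depth limits ZIP2, EXO70H1, NRT2.5 and MYB90 at 0 h, where 0 to 3 counts per genotype were seen.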
